A study of Mus musculus with 8 samples.

Results

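Txnip, Arrdc4, the related gene Arrdc3 and 5 genes that sense or carry glucose were followed in mouse embryonic stem cells in which the histone methyltransferase MLL1 was inhibited or deleted. The 8 genes are the alpha arrestins Txnip, Arrdc4 and Arrdc3, the transcription factor genes Mlxip, Mlxipl and Mlx, and the glucose transporter genes Slc2a1 and Slc2a3. They were looked up by symbol among 50060 named loci of 61535 in all. All 8 were found, each as the only name of its locus and with the status OK in every group. The genes were chosen by name with the FPKM differences between these groups already known, so their values are a description and carry no test.

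The measurements are RNA sequencing of 8 libraries of blastocyst-derived C57BL/6J stem cells, in 4 groups of 2 libraries, grown with LIF on mouse embryonic fibroblast feeder cells. Cells of every group, the untreated controls included, carried a floxed Mll1 gene and a Cre recombinase that tamoxifen activates (genotype Mll1fl/fl; Cre-ER TM). The MM401 group received the MLL1 inhibitor MM401 at 100 µM. The Mll1-deleted group received 4-hydroxytamoxifen at 5 µM, which activates the Cre. The 2i group received PD03259010, which inhibits MEK, at 1 µM together with CHIR99021, which inhibits GSK3, at 3 µM. All treatments ran for 5 days. Serum medium was used with MM401 and 4-hydroxytamoxifen, but serum replacement with 2i, and effects of that change and of the 2i inhibitors cannot be told apart. The sources used here do not say which medium the untreated cells had, nor how much glucose any medium held. No vehicle group, and no group with tamoxifen but without Cre, is among the 8 libraries, so 4-hydroxytamoxifen itself and the loss of Mll1 cannot be told apart.

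Alpha arrestins are adaptor proteins that bring NEDD4-family ubiquitin ligases to membrane proteins. TXNIP also binds thioredoxin, and it lowers glucose uptake by promoting the removal of the transporters GLUT1 and GLUT4 from the cell surface. The genes for TXNIP and ARRDC4 are classical targets of MondoA (Mlxip) and ChREBP (Mlxipl). These factors pair with MLX, respond to glucose 6-phosphate and bind E-box pairs called carbohydrate response elements. Stem cells take up much glucose through GLUT1 (Slc2a1) and GLUT3 (Slc2a3).

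Promoter sequences are shown for the 3 genes that passed a 2-fold change in at least 1 treated group, since the E-boxes that the MLX pairs bind lie in this kind of window. RefSeq (GRCm38.p6, the assembly of mm10) gave a window from 250 bases before to 50 after the start site for 7 of the 8 genes, 10 windows in all. Capitals mark matches on either strand to CACGNG, the repeated unit of an E-box pair, and to CCAAT. The Txnip window is chr3:96557707-96558006, plus strand. The Arrdc4 window is chr7:68749189-68749488, minus strand. The Mlxipl window, at the first of its starts, is chr5:135089640-135089939, plus strand.
Txnip: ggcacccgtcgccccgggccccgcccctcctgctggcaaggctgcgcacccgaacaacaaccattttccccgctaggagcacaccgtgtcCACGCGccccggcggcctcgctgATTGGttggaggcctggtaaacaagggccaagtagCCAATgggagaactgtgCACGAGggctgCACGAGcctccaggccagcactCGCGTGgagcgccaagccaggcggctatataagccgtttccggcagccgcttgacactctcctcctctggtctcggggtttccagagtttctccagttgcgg
Arrdc4: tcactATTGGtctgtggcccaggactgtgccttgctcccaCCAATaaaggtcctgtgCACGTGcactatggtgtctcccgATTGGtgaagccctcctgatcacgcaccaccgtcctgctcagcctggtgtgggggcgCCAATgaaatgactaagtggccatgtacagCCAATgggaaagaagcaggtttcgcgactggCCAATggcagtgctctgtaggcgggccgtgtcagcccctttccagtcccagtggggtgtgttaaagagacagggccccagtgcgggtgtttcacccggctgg
Mlxipl: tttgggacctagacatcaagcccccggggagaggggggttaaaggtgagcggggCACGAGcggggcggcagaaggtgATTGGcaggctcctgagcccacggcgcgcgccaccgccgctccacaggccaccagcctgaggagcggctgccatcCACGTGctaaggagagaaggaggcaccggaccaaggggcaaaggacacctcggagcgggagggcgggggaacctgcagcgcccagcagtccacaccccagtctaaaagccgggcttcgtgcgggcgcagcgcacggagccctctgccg

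The Txnip window held 4 matches to CACGNG. A pair of them, separated by 5 bases, begins 85 bases before the start site, and this tandem (CACGNG, any 5 bases, CACGNG) was found in 16 of the 32851 promoter windows of the table (0.0487%). The Arrdc4 window held the palindromic E-box CACGTG once, 193 bases before the start, as did 7.15% of all windows at least once. It also held 6 matches to CCAAT, a number reached by 0.0791% of windows, while Txnip held 2, a number reached by 11.7%. In Mlxipl the first window held CACGTG 98 bases before the start and a further CACGNG match 196 bases before it. Mlx held CACGTG 40 bases before its start. No CACGNG match lay in the windows of Arrdc3, Mlxip or Slc2a1. A form of the carbohydrate response element (CANGNG, any 5 bases, CNCNTG), in 0.557% of windows, had no match in any of the 10, Txnip included. Its last CNCNTG needs a T where the Txnip tandem has an A. These motifs overlap each other (CACGTG is also a CACGNG match), and they were chosen after the Txnip window had been seen.

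**Figure D1:**
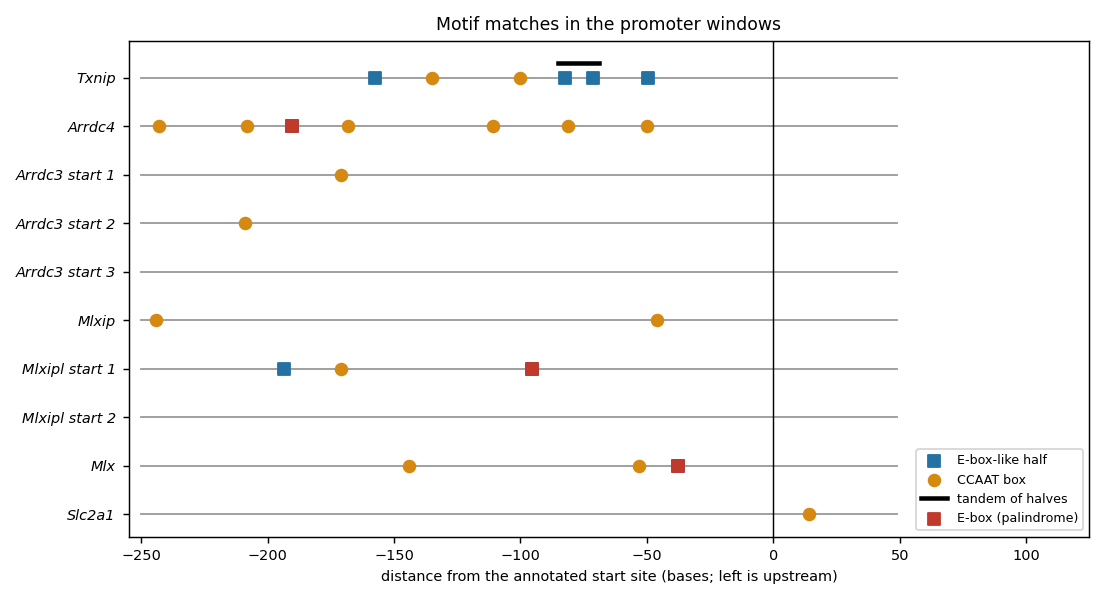
Motif matches in the 10 promoter windows of 7 genes, by distance in bases from the annotated start site (x axis), with 1 line per window. Blue squares are CACGNG matches, red squares CACGTG, orange circles CCAAT, and the black bar the tandem, which appears once, in Txnip.

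The deposited tables hold 1 value per group, FPKM (a fragment count corrected for transcript length and library size), with a lower and an upper limit set by the authors. No SD or p-value across libraries can be given, and the authors' interval stands in brackets. The call rule was a log2 ratio of FPKM + 1 of at least 1 in size (2-fold) between groups, among named loci with an FPKM of at least 1 in either group. "Rose" and "fell" below refer to this rule. Total estimated counts per group lay between 76501619 and 90728747 fragments. Kmt2a, the Mll1 gene itself, was at 15.5, 14.6, 11.8 and 8.72 FPKM in untreated, MM401, Mll1-deleted and 2i cells, and this sum over all exons, deleted or not, is no measure of recombination. The 8 stem cell markers were all detected in every group, with Zfp42 the lowest at 28.8 to 33.4 FPKM. Of them 3 (Pou5f1, Utf1 and Tdgf1) fell in MM401 cells, where 6.08% of all loci tested were lower. All 16 fibroblast markers were above 0 in every group. The 15 of them with the status OK throughout summed to 1071 FPKM in untreated, 1537 in MM401, 722 in Mll1-deleted and 3207 in 2i cells. Col3a1, whose locus carries a further gene name, alone made up 547, 676, 351 and 1884 FPKM of these sums. Its lower limit was 0 in every group. In such bulk samples fewer cells of a type and less RNA per cell cannot be told apart.

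Txnip rose in both MLL1 treatments and was near its untreated level in 2i. The gene (ENSMUSG00000038393, chromosome 3, 96557957 to 96561883, plus strand, mm10) stood at 135 FPKM [89.5 to 180.0] in untreated cells, 740.1 [530.2 to 950.1] in MM401, 506 [366 to 645] in Mll1-deleted and 150.0 [103 to 197] in 2i cells. MM401 and Mll1-deleted cells were high and their intervals overlapped, while both lay wholly above untreated and 2i, which overlapped each other. Against untreated cells the level was 5.49-fold higher in MM401 and 3.75-fold higher after deletion, log2 ratios of 2.45 and 1.90. In 2i the log2 ratio was 0.15. By level, among loci with a value (those with too many fragments to be quantified, 18 to 107 per group, have none), Txnip stood at rank 887 of 15352 named loci of at least 1 FPKM in untreated cells, and at rank 45 of 15927 in MM401 and 102 of 15418 in Mll1-deleted cells. In 2i it stood at rank 951 of 15023. The estimated counts behind these values were 25852.7, 143543, 97595 and 29849.6 fragments in the same order of groups as the FPKM.

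The antisense gene Gm15441 spans the whole Txnip gene on the other strand. Its FPKM was 0.493, 1.33, 0.549 and 0.595 in untreated, MM401, Mll1-deleted and 2i cells, and its estimated counts were at most 0.187% of those of Txnip. The sources used here do not state strand use in counting, so fragments of the pair may not be fully separated.

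**Figure D2:**
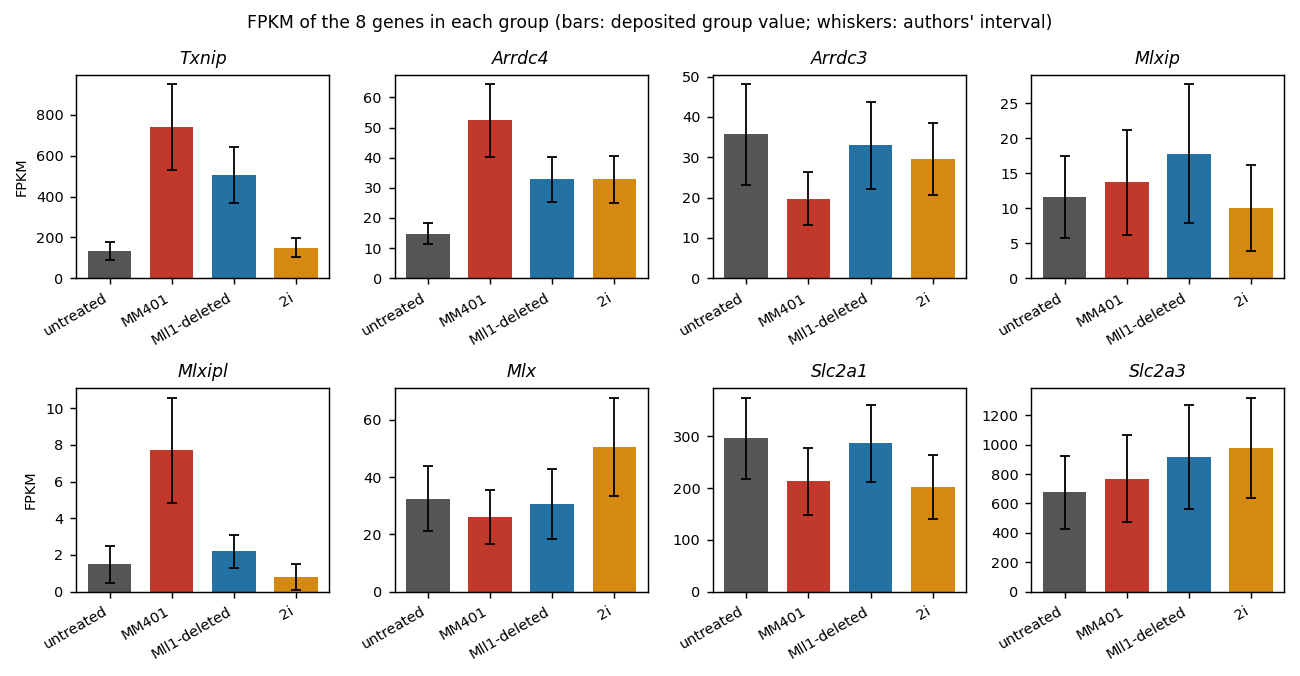
FPKM of each of the 8 genes (y axis, linear, from 0) in the 4 groups (x axis). Bars are the deposited group values and whiskers the authors' lower and upper limits. The intervals of Txnip and Arrdc4 lie wholly above their untreated ones in MM401 and Mll1-deleted cells. So do those of Arrdc4 in 2i cells and of Mlxipl in MM401 cells.

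Arrdc4 rose in all 3 treated groups. This arrestin, a close relative of TXNIP, likewise lowers glucose uptake. The gene (ENSMUSG00000042659, chromosome 7, 68736995 to 68749241, minus strand) stood at 14.8 FPKM [11.3 to 18.4] in untreated, 52.4 [40.3 to 64.4] in MM401, 32.9 [25.3 to 40.4] in Mll1-deleted and 32.8 [25.1 to 40.5] in 2i cells. Each treated interval lay wholly above the untreated one, and the 3 treated intervals overlapped each other, that of MM401 meeting the other 2 only at its lower edge. Relative to untreated cells, the FPKM was 3.53-fold, 2.22-fold and 2.21-fold higher, with log2 ratios of 1.75, 1.10 and 1.09. No other locus overlapped Arrdc4. The comparisons with untreated cells share that group, so these 3 ratios are not independent.

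The ratio of Txnip to Arrdc4 was not the same in every group. Per length, the Txnip level was 9.09 times that of Arrdc4 in untreated cells, 14.1 times in MM401, 15.4 times in Mll1-deleted and 4.57 times in 2i cells. The lowest ratio was that of 2i, where Arrdc4 passed the 2-fold rule and Txnip did not. A test of that difference was not possible with 1 value per group.

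Arrdc3 passed the rule in no treated group, with log2 ratios of −0.82, −0.11 and −0.26 in MM401, Mll1-deleted and 2i cells. It encodes an arrestin known for the sorting of beta-adrenergic receptors and is not a classical MondoA target. Its FPKM was 35.7 [23.2 to 48.1] in untreated, 19.7 [13.2 to 26.2] in MM401, 32.9 [22.2 to 43.7] in Mll1-deleted and 29.5 [20.6 to 38.5] in 2i cells. All 4 intervals overlapped, MM401 was the lowest, and its log2 ratio of −0.82 did not pass the rule. The ratio of Txnip to Arrdc3 levels went from 3.78 in untreated to 37.5 in MM401 and 15.4 in Mll1-deleted cells, against 5.08 in 2i. Of the remaining alpha arrestins, Arrdc1 and Arrdc2 could be compared and neither passed in any treated group. Arrdc2 was at 8.75 FPKM in untreated, 14.0 in MM401, 15.3 in Mll1-deleted and 8.14 in 2i cells, with overlapping intervals. Arrdc5 was at or below 0.101 FPKM in every group.

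Among the glucose-responsive factors, only Mlxipl passed the rule, and only in MM401 cells. Mlxipl, which encodes ChREBP (ENSMUSG00000005373, chromosome 5, 135089890 to 135138382), stood at 1.48 FPKM [0.462 to 2.51] in untreated, 7.71 [4.83 to 10.6] in MM401, 2.20 [1.31 to 3.10] in Mll1-deleted and 0.797 [0.0995 to 1.49] in 2i cells. The MM401 interval lay above the other 3, which overlapped. The level in MM401 was 5.19-fold the untreated one, a log2 ratio of 1.81, against 0.37 after deletion and −0.47 in 2i. These are low levels: the values rest on 266, 1516, 498 and 172 estimated fragments. On the log2 scale of estimated counts + 10, the ratios to untreated were 2.47, 0.88 and −0.60.

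Mlxip, which encodes MondoA, showed no change past the rule. Its FPKM was 11.6 [5.73 to 17.5] in untreated, 13.7 [6.25 to 21.1] in MM401, 17.8 [7.88 to 27.7] in Mll1-deleted and 10.04 [3.88 to 16.2] in 2i cells. The wide intervals all overlapped. Mlxip was the more abundant of the pair in every group, by 7.82 times in untreated, 1.78 times in MM401, 8.08 times in Mll1-deleted and 12.6 times in 2i cells. The 2 levels thus came closest in MM401 cells, where Mlxipl was high.

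Mlx, the shared partner of both factors, was at 32.5 FPKM [21.1 to 43.8] in untreated, 26.1 [16.5 to 35.6] in MM401, 30.6 [18.4 to 42.8] in Mll1-deleted and 50.6 [33.5 to 67.8] in 2i cells. The order was highest in 2i and lowest in MM401, with all intervals overlapping and no ratio to untreated past the rule. Per length, the level of Mlx was 2.48 times the sum of Mlxip and Mlxipl in untreated, 1.22 times in MM401, 1.53 times in Mll1-deleted and 4.67 times in 2i cells. The end of Mlx overlaps that of Psmc3ip on the opposite strand, a recombination cofactor gene with between 55.8% and 97.3% of the estimated counts of Mlx. Fragments from the shared end could be assigned to either gene.

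The glucose transporters were the most abundant of the 8 genes in untreated cells, and neither passed the rule in any comparison. Slc2a1, which encodes GLUT1, was at 297 FPKM [218 to 375] in untreated, 213 [148 to 278] in MM401, 286 [212 to 360.3] in Mll1-deleted and 202 [140.2 to 264] in 2i cells. Its log2 ratios to untreated were −0.48, −0.05 and −0.55, and all intervals overlapped. Slc2a3, which encodes GLUT3, was at 676 FPKM [427 to 925], 768 [474 to 1063], 915 [564 to 1267] and 978 [634 to 1321] in the same order of groups. Its intervals also overlapped throughout, with ratios of 0.18, 0.44 and 0.53. Slc2a3 stood within the 62 highest named loci with a value in every group, and its level was 2.28 times that of Slc2a1 in untreated, 3.61 times in MM401, 3.20 times in Mll1-deleted and 4.84 times in 2i cells. Their sum was 973, 981, 1202 and 1180 FPKM in that order. The Slc2a3 locus also holds the pseudogene Gm4482, with at most 0.376% of its estimated counts.

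In total 3 of the 8 genes (Txnip, Arrdc4 and Mlxipl) were higher and 0 lower in MM401 cells, where 7.03% of the 16768 loci tested were higher and 6.08% lower. After deletion 2 (Txnip and Arrdc4) were higher and 0 lower, beside 3.02% and 3.66% of 16235 loci. In 2i cells 1 (Arrdc4) was higher and 0 lower, beside 2.92% and 4.16% of 16039 loci. Over all loci the 2i comparison had 469 higher and 667 lower, against 535 and 1352 with estimated counts and 397 and 800 with the median ratio set to 0. All 6 of these calls had separate intervals, which higher calls of 4.42%, 1.50% and 1.71% of loci and lower calls of 4.01%, 2.04% and 2.16% also had in the 3 comparisons. Since the genes were chosen with these contrasts known, nothing is read from their counts against those shares. The median log2 ratio of the 8 genes was 0.20 in MM401, 0.40 in Mll1-deleted and −0.02 in 2i cells, beside −0.04, 0.05 and 0.08 over all loci tested.

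Ordered by log2 ratio, Txnip was number 142 from the top of 16768 loci in MM401 cells and number 152 of 16235 in Mll1-deleted cells. Arrdc4 was number 307 and 406 in the same comparisons and number 390 of 16039 in 2i cells. Mlxipl was number 289 in MM401 cells. Toward the other end, Arrdc3 was number 1598 from the bottom in MM401 cells, and Slc2a1 was number 1905 from the bottom in 2i cells.

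**Figure D3:**
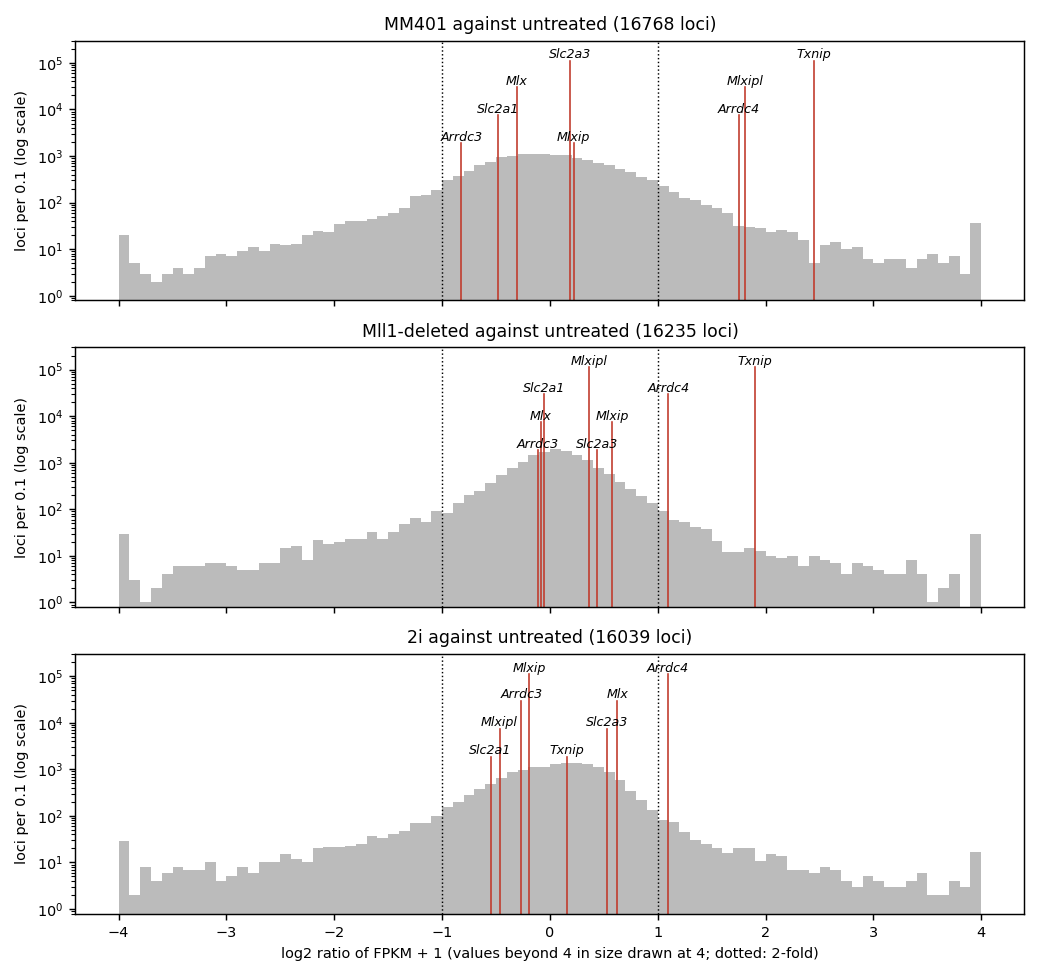
Histograms of the log2 ratio of FPKM + 1 to untreated (x axis) over all loci tested, with the number of loci per bin of 0.1 on a log axis, for MM401, Mll1-deleted and 2i cells, with ratios beyond 4 placed in the end bins. Red lines mark the 8 genes and dotted lines the 2-fold bounds; Txnip lies at 2.45, 1.90 and 0.15 in the 3 panels.

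MM401 and Mll1-deleted cells differed past 2-fold only in Mlxipl (log2 ratio 1.44, separate intervals), with 5.51% of 16668 loci higher and 5.03% lower in MM401 (3.36% and 3.11% with separate intervals). With the median ratio set to 0, the numbers over all loci shifted from 919 higher and 839 lower to 1105 and 652, and with estimated counts they were 1826 and 1128. Txnip was 1.46-fold and Arrdc4 1.59-fold higher in MM401 than after deletion, within overlapping intervals. Against 2i cells, MM401 cells were higher in Txnip (log2 ratio 2.30) and Mlxipl (2.28), both with separate intervals, where 10.4% of 16775 loci were higher and 11.1% lower (6.44% and 8.24% with separate intervals). That balance over all loci, 1739 higher and 1857 lower, turned to 2024 and 1553 with the median ratio set to 0 and to 3741 and 2551 with estimated counts. By the rule Mll1-deleted cells were higher than 2i cells in Txnip alone (1.75, separate intervals), where 5.96% of 16224 loci were higher and 5.18% lower (3.42% in each direction with separate intervals). Estimated counts gave 2148 higher and 1236 lower there, in place of 967 and 841. Mlxipl, at 2.20 against 0.797 FPKM, had a log2 ratio of 0.83 with overlapping intervals, and 1.48 with estimated counts. In Arrdc4 Mll1-deleted and 2i cells had a log2 ratio of 0.00. Mlx was 1.94-fold higher in 2i than in MM401 cells (log2 ratio of MM401 to 2i −0.93), with intervals that overlapped.

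The fibroblast markers moved with these groups in their own way. All 16 had ratios above 0 in MM401 cells (2 past the rule, Postn and Lox), 14 of 16 had ratios below 0 after deletion (0 past the rule), and 15 of 16 had ratios above 0 in 2i cells (7 higher). Over all loci tested 7.03% were higher in MM401, 3.66% lower in Mll1-deleted and 2.92% higher in 2i cells. The part of feeder RNA in the values of the 8 genes was not tested in any group.

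Other genes of glucose handling were described from lists of the pathway, whose counts stand beside background shares of 7.03% higher and 6.08% lower in MM401, 3.02% and 3.66% in Mll1-deleted and 2.92% and 4.16% in 2i cells. Of 11 further genes of the facilitative and sodium-coupled glucose transporter families, 7 could be compared in MM401 cells. None passed in any group against untreated (medians 0.18, 0.19 and −0.01 in MM401, Mll1-deleted and 2i cells). At such low levels the added 1 FPKM decides the call. Slc2a6 in MM401 went from 0.413 to 1.78 FPKM, 4.33-fold with separate intervals, for a log2 ratio of 0.98, and estimated counts gave 1.78. Slc5a2 in MM401 (1.59) and Slc2a4 after deletion (1.15) also passed with estimated counts, with overlapping intervals. Slc2a8, the most abundant of them, was at 31.9, 31.4, 43.3 and 30.9 FPKM in untreated, MM401, Mll1-deleted and 2i cells. Slc2a4, which encodes the insulin-responsive GLUT4, was at 1.32 in untreated and 3.25 in Mll1-deleted cells, a log2 ratio of 0.87 with overlapping intervals.

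Hexokinase genes, whose enzymes make the glucose 6-phosphate that MondoA and ChREBP respond to, moved in opposite directions in MM401 cells. Of 9 genes of glucose phosphorylation and glucose 6-phosphate use compared there, 1 was higher and 2 were lower (median −0.24). Over all loci tested 7.03% were higher and 6.08% lower. Hk1 rose from 25.5 [20.5 to 30.5] to 58.5 [45.0 to 72.0] FPKM, Hk2 fell from 75.02 [60.8 to 89.2] to 31.5 [25.1 to 37.9], and Hkdc1 fell from 7.09 to 2.49. The level of Hk1 went from 0.340 times that of Hk2 in untreated to 1.86 times in MM401 cells, against 0.533 after deletion and 0.545 in 2i. After deletion Hk1 was at 50.3 FPKM, just under the rule (0.95, separate intervals), Hk2 was at 94.3, and Hkdc1 fell to 1.46. In 2i cells 0 of the 9 passed (median 0.38, against 0.22 after deletion).

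Targets of the carbohydrate response outside the 8 genes had calls in both directions in MM401 cells. Of 14 compared there, 2 were higher, 1 was lower and 11 were neither, beside 7.03% higher and 6.08% lower over all loci. Ratios were above 0 for 8 and below 0 for 6 of them (median 0.38, against −0.04 over all loci). Fgf21, a secreted metabolic hormone, rose from 1.38 [0.867 to 1.89] to 6.27 [4.78 to 7.76] FPKM, and the repressor gene Bhlhe40 rose from 13.1 to 29.8. The fatty acid synthase gene Fasn fell from 72.9 [43.2 to 102] to 26.8 [16.6 to 37.0]. After deletion 0 of 15 passed, while 12 had ratios above 0 and 3 below (median 0.33, against 0.05 over all loci). Klf10 had the largest ratio, 0.93, at 50.6 against 26.1 FPKM in untreated cells. In 2i cells only Elovl6, a fatty acid elongase gene, passed, and it fell from 34.9 to 15.8 FPKM, beside 4.16% of all loci lower. Of the 14 compared in 2i cells, 9 had ratios above 0 and 5 below (median 0.20, against 0.08 over all loci).

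Of the MAX and MXD network, whose proteins share MLX or its relative MAX as partners, 1 of 10 genes passed. It was lower in MM401 cells, as were 6.08% of all loci tested. Mycn fell from 112 [90.5 to 133] to 28.9 [23.2 to 34.5] FPKM in MM401 cells, and Myc was at 14.0 in untreated and 7.35 in MM401 cells (−0.84, separate intervals, and −1.01 with estimated counts). In Mll1-deleted and 2i cells 0 of 10 passed, and the list medians were −0.22, 0.17 and −0.07 in MM401, Mll1-deleted and 2i cells. The thioredoxin system, to which the binding partner of TXNIP belongs, had 1 of 13 genes past the rule, beside the same 6.08% of loci lower in MM401 cells. Prdx2, a peroxiredoxin gene, fell there from 166 to 72.2 FPKM, and the list medians were −0.27, −0.14 and 0.11. Txn1, which encodes thioredoxin itself, was at 434, 387, 326 and 397 FPKM in untreated, MM401, Mll1-deleted and 2i cells, with log2 ratios between −0.41 and −0.13.

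None of 8 NEDD4-family ligase genes and none of 6 subunit genes of AMPK, the kinase that marks TXNIP for degradation, passed against untreated cells in any group. The ligase medians were 0.29, 0.17 and −0.31, and the AMPK medians 0.26, 0.05 and 0.09. Itch, whose ligase targets TXNIP, was at 13.2, 14.5, 14.6 and 9.92 FPKM in the same order of groups, and it is named here after its values were seen. In MM401 cells 5 of the 8 ligase genes had ratios above 0 and 3 below, and 2 had separate intervals. These 2 were Nedd4l, at 21.4 [16.5 to 26.4] against 12.6 [9.68 to 15.6] FPKM in untreated cells, and Wwp1, at 16.4 [13.2 to 19.6] against 10.4 [8.32 to 12.5]. Prkaa2, a catalytic subunit gene of AMPK, had the largest ratio of its list in MM401 cells, 0.98, at 7.73 [6.29 to 9.17] against 3.44 [2.78 to 4.09] FPKM in untreated cells. That is 2.25-fold with separate intervals, and it passed with estimated counts (log2 ratio 1.17).

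**Figure D4:**
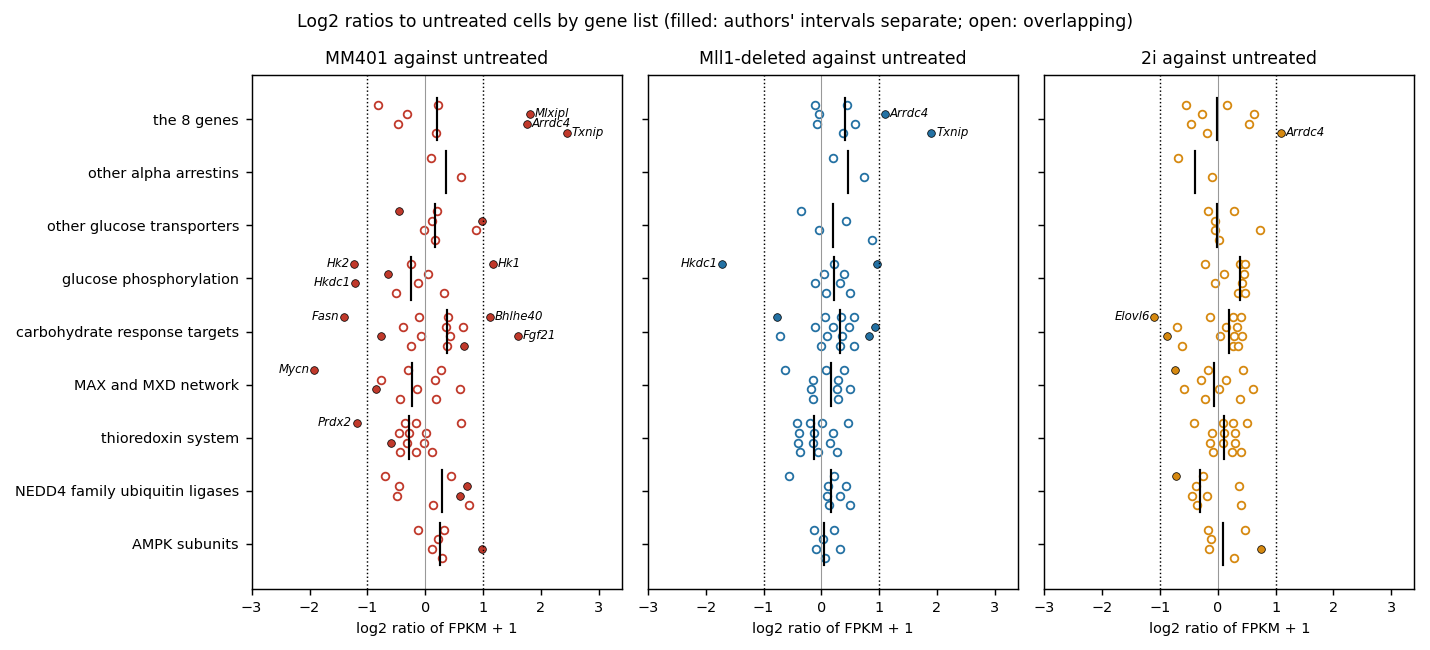
Log2 ratio of FPKM + 1 to untreated (x axis) for every gene compared, by list (rows), in MM401, Mll1-deleted and 2i cells. Filled points have separate intervals, black bars are list medians, dotted lines the 2-fold bounds, and names mark genes past them: Txnip and Arrdc4 lie beyond every other listed gene on the higher side after deletion.

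The loci whose pattern was most like that of Txnip were sought by the distance between their 3 log2 ratios to untreated, over the 4 groups. Of 9298 loci compared, each with 1 name, at least 5 FPKM in untreated cells and at least 100 estimated counts in every group, only Arl4d lay within 0.5 (distance 0.36). Arl4d, a small GTPase gene, was at 8.92, 67.1, 34.1 and 10.98 FPKM in untreated, MM401, Mll1-deleted and 2i cells. The next were Cnga3 (0.76), Des (0.93), Mmp17 (1.06) and Pm20d1 (1.11). For Arrdc4, 3 loci lay within 0.5, and they were Hspb8 (0.32), Pm20d1 (0.41) and Cadm4 (0.48). They were followed by Ppp2r2c (0.63) and Retsat (0.64). Hspb8, a small heat shock protein gene, was at 24.7, 88.8, 43.6 and 51.2 FPKM in the same order of groups. These distances rest on 3 ratios that share the untreated group.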

How the data were processed

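RNA was sequenced from 8 libraries in 4 groups. Tools listed in the submitters' processing notes, with no roles, are TopHat2 (2.1.1), deepTools and SAMtools (1.5); the build is mm10. The authors deposited FPKM per locus with 2 limits of unstated level, per the file headers. They also deposited an estimated count per locus, which can hold fractions. Both tables hold 1 column per group, so the authors had combined the 2 libraries and no test was run. A further 12 columns of count variances were not used. Values with the status HIDATA were treated as missing, and limits with the status FAIL were not used.

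Ratios were computed as log2 of FPKM + 1 in Python 3.11.15 with pandas 2.3.3, and the calling step was tested on simulated data. The alternatives were a pseudocount of 0.1, no filter, estimated counts (pseudocount 10, minimum 20), median centring and separate intervals. Named are the 8 members, of each list the 3 largest ratios or highest levels, and the 5 loci nearest to Txnip and to Arrdc4; any further list gene is an example chosen after its values were seen. Members and lists were chosen with earlier results of these data known. Gene positions are from GENCODE M21, promoters from RefSeq, both GRCm38.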

Additional observations from a re-analysis of the deposited data

How the results depend on the processing

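The numbers of the 8 genes past 2-fold stayed the same in all comparisons under all 5 alternatives, except between Mll1-deleted and 2i cells. There the main number of 1 (Txnip) became 2 with a pseudocount of 0.1 and 3 with estimated counts. The pseudocount added Mlxipl (log2 ratio 1.36), and estimated counts added Mlxipl (1.48) and Mlxip (1.01). Of the 48 ratios of the 8 genes, 0 changed sign under the pseudocount, the counts or the median centring. The number of loci past the rule moved more. With a pseudocount of 0.1 it was 3436 in MM401, 1772 in Mll1-deleted and 1821 in 2i cells against untreated, 2764 between MM401 and Mll1-deleted and 2884 between Mll1-deleted and 2i cells. With estimated counts the numbers were 3866, 1640 and 1887 against untreated, and 2954 between MM401 and Mll1-deleted, 6292 between MM401 and 2i and 3384 between Mll1-deleted and 2i cells. With separate intervals required they were 1413, 575 and 620 against untreated, 1078 between MM401 and Mll1-deleted and 1110 between Mll1-deleted and 2i cells. The main numbers were 2197, 1086, 1136, 1758, 3596 and 1808. Among the pathway lists, calls added by estimated counts included, in MM401 cells, Slc2a6, Slc5a2, Myc, Prkaa2 and Prkag3 (under 1 FPKM), and after deletion Slc2a4. Without the filter no count changed, since a locus under 1 FPKM in both groups cannot pass. No paired analysis was possible because the columns hold 1 value per group, and no library could be left out for the same reason.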

Other observations

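The tandem of CACGNG matches found in the Txnip window lay in the promoters of 15 genes, all in the tables. The motif was chosen from the Txnip window with the rise of Txnip known, so the calls of Txnip in this set were fixed in advance. Of the 11 compared in MM401 cells, 2 were higher and 0 lower, and they were Txnip and Fem1b. Fem1b had a log2 ratio of 1.06 (39.8 FPKM in untreated and 84.2 in MM401 cells). After deletion Txnip alone of 11 was higher, and in 2i cells Fkbp6 alone of 10 was higher (9.14 FPKM in untreated and 22.6 in 2i cells). The background is the share of loci given above for each comparison. The compared genes that did not pass in MM401 cells had ratios on both sides of 0. Fnip1, which encodes a partner of folliculin, was at 6.17 in untreated and 10.3 FPKM in MM401 cells, a log2 ratio of 0.66. Also above 0 were Tdrd9 (0.83), Nfkb2 (0.59), A430005L14Rik (0.18), Man2b2 (0.16) and Irak1bp1 (0.11). Below 0 were Rbmxl1 (−0.96), Fkbp6 (−0.52) and Rbbp4 (−0.45).

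The nearest protein-coding neighbours were read on each side of the genes that passed, 2 per side. Around Txnip, BC107364 and Hfe2 were under 1 FPKM in every group and were not compared. Gm16253 and Polr3gl did not pass in any treated group, and Polr3gl was at 35.5, 23.3, 48.3 and 19.5 FPKM in untreated, MM401, Mll1-deleted and 2i cells. Next to Mlxipl, Vps37d was higher in MM401 cells (log2 ratio 1.05, from 3.23 to 7.73 FPKM), while Dnajc30, Tbl2 and Bcl7b did not pass. Of the neighbours of Arrdc4, Nr2f2, 1602703 bases away, was lower in Mll1-deleted (−1.52) and 2i cells (−1.17). Pgpep1l, 472762 bases away, had log2 ratios of 0.74, 0.56 and 0.33 in MM401, Mll1-deleted and 2i cells. Fam169b, 373903 bases away, had ratios of −0.41, 0.11 and 0.90. Neither passed, and Gm10295 was at 0 FPKM in every group. Over all loci tested 7.03% were higher in MM401, 3.66% lower in Mll1-deleted and 4.16% lower in 2i cells.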
